A study of Homo sapiens with 36 samples.

Results

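The genes described here serve LDL uptake and the movement of sterol inside the cell: MYLIP, SCARB1, STARD4, NPC1, NPC2, LIPA and SOAT1. They were taken by symbol as 7 of the 18932 genes counted, and each was found on 1 row. RNA was sequenced from HepG2, a line of human hepatoma cells, in 36 samples that formed 12 groups of 3. Cells in serum-free medium received docosahexaenoic acid (DHA, an n-3 fatty acid bound to bovine serum albumin), propionate (PRO, a short-chain fatty acid), protocatechuic acid (PCA, a phenolic metabolite), DHA+PRO or DHA+PCA, each for 6 h and for 24 h, or the vehicle alone (Ctrl: albumin, ethanol and dimethyl sulfoxide), each compound at 1 dose. All groups, Ctrl included, were without serum during treatment. The 3 samples of a group came from 3 independent cultures, and each sample pooled the RNA of 3 replicates of 1 culture, so that a single tumour-derived line stands for the hepatocyte.

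LDL that enters a liver cell by its receptor is carried to the lysosome. There LIPA, the lysosomal acid lipase, frees cholesterol from its esters, and NPC2, a soluble carrier, passes it to NPC1, a membrane protein through which it leaves. STARD4, a soluble transfer protein, moves cholesterol between membranes in the cytosol, and SOAT1, in the endoplasmic reticulum, converts surplus cholesterol to esters for storage. MYLIP, a ubiquitin ligase induced by the oxysterol receptor LXR, marks lipoprotein receptors for degradation and so limits uptake. SCARB1 is a surface receptor that takes cholesteryl ester from HDL without engulfing the particle. When membrane sterol is low, the SREBP2 factor raises transcription of the enzymes of cholesterol synthesis together with that of several genes of sterol uptake and transport, STARD4 among them.

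All 7 genes passed the filter on low counts at both times. The libraries held 4659744 to 42326734 counts (median 7034010), the deepest being DHA+PRO at 24 h, replicate 2. Markers of hepatocyte-like cells were abundant, with ALB between 21851 and 31857 CPM (counts scaled to library size). PTPRC, CD163, PECAM1 and KRT5, markers of blood, macrophage, endothelial and basal epithelial cells, reached at most 0.94 CPM. COL1A1 reached 8.81 CPM, and RELN, listed as a marker of stellate cells, lay between 573 and 1187 CPM.

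Per kilobase of counted transcript, the 7 genes spanned a wide range of levels. NPC2 had the highest median over the 36 samples, 148 RPKM (CPM divided by the counted length in kilobases), followed by SCARB1 at 99.5, LIPA at 50.2, NPC1 at 21.5, STARD4 at 18.04, SOAT1 at 8.29 and MYLIP at 2.52 RPKM. In single samples NPC2 ran from 109.5 to 186 RPKM and SCARB1 from 69.2 to 128 RPKM, so these neighbours overlapped. NPC1 (15.3 to 30.6 RPKM) and STARD4 (9.98 to 31.6 RPKM) overlapped as well, while MYLIP, at up to 4.27 RPKM, stayed below the lowest SOAT1 sample at 5.84 RPKM. MYLIP rested on 26 to 267 reads a library, the thinnest counts of the 7 genes, and its fold changes had the widest intervals.

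The genes lie on separate chromosomes of the GRCh37 build. MYLIP is on the plus strand at chr6:16129317-16148478 and SOAT1 on the plus strand at chr1:179262849-179327814. The others are on the minus strand: SCARB1 at chr12:125262174-125348519, STARD4 at chr5:110834022-110848157, NPC1 at chr18:21111463-21166581, NPC2 at chr14:74946643-74960084 and LIPA at chr10:90973326-91011796. The libraries did not keep strand. Reads of STARD4-AS1 over 75 exon bases of STARD4, of RMC1 over 198 of NPC1 and of an unnamed long non-coding RNA over 1120 of SCARB1 can therefore not be told apart from those of the gene itself, nor can those of MIR4709 over 72 bases of NPC2, on its own strand.

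MYLIP, STARD4 and LIPA are the 3 genes called lower with DHA at 24 h without added covariates, as described further on. The bases just before their annotated starts are shown for that reason. Each runs 5′ to 3′ along the strand of its gene, read from GRCh37 (MYLIP chr6:16129067-16129316, STARD4 chr5:110848289-110848407, LIPA chr10:91011797-91012046). Capitals mark a CCAAT box, the letters bound by the NF-Y factor, or its reverse complement ATTGG.
STARD4: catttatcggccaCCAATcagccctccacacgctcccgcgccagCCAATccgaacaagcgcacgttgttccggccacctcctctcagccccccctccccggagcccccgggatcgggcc
MYLIP: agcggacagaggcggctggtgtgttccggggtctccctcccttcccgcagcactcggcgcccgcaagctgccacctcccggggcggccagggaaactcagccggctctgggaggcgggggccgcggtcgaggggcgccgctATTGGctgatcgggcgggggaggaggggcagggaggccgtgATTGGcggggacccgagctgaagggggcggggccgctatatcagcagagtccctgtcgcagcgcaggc
LIPA: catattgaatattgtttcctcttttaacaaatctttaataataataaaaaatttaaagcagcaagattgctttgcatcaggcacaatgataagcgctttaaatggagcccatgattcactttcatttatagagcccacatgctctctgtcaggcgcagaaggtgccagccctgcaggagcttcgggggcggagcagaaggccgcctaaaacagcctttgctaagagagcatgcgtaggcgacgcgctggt
The STARD4 stretch ends 132 bases before the start, where annotated exons of other transcripts begin. Both strands of the 250 bases before the start of every counted gene were searched. STARD4 held 2 copies of CCAAT on its own strand, 237 to 233 and 206 to 202 bases before the start. MYLIP held 2 copies on the opposite strand, at 109 to 105 and 68 to 64 bases, and NPC2 1 copy on the opposite strand, at 245 to 241 bases. The other 4 genes, LIPA included, had no CCAAT in this window. CCAAT was present in 32.7% of all 18932 windows and in 16 of 19 genes of sterol synthesis (84.2%). The letters TCACNCCAC, a form of the sterol regulatory element, were in 0.993% of all windows, in 1 of 19 sterol synthesis genes and in 0 of the 7. These matches describe letters and were not tested for binding.

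The first question was what DHA did whether or not a second compound was present. For this the 9 samples with DHA at a time were set against the 9 without it, as the mean of DHA against Ctrl, DHA+PRO against PRO and DHA+PCA against PCA. Changes are log2 fold changes from edgeR's quasi-likelihood test with their standard error (SE), p-values were adjusted by the Benjamini-Hochberg method over all genes tested, and a gene was called at an adjusted p of at most 0.05 with an average log2 CPM above 0. At 24 h, 3 of the 7 genes were called, all lower with DHA: MYLIP, STARD4 and LIPA. Of all 11893 genes tested, 1.23% were called and 0.942% were called lower. The median change of the 7 genes was -0.21, against 0.0070 over all genes. A bulk RNA level cannot separate fewer cells that express a gene from less RNA per cell.

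MYLIP showed the largest change of the 7 genes at 24 h. Its level in Ctrl was 9.40, 7.65 and 8.35 CPM, in PRO 10.5, 9.73 and 9.83 CPM, and in PCA 4.84, 10.3 and 8.66 CPM. With DHA it was 5.88, 6.58 and 6.08 CPM, with DHA+PRO 6.35, 6.39 and 6.56 CPM, and with DHA+PCA 4.61, 5.32 and 5.09 CPM. All 9 samples with DHA lay below every sample without it except PCA replicate 1, at 4.84 CPM, which lay at the level of the DHA groups. The means were 5.87 ± 0.711 CPM with DHA and 8.80 ± 1.75 CPM without (SD, n = 9 each). MYLIP fell by 0.59 on the log2 scale (SE 0.124, 95% interval -0.84 to -0.33, adjusted p = 0.0115), so that its RNA fell by 33.3%.

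STARD4 was lower with DHA at both times. At 24 h it stood at 55.4, 69.1 and 58.7 CPM in Ctrl, 60.1, 49.96 and 57.8 CPM in PRO, and 49.6, 55.8 and 48.8 CPM in PCA. It stood at 44.1, 51.5 and 47.4 CPM with DHA, 37.6, 36.5 and 43.2 CPM with DHA+PRO, and 36.5, 48.7 and 38.6 CPM with DHA+PCA. The groups overlapped only between the top DHA sample (51.5 CPM) and the lowest samples of PRO and PCA. The pooled change at 24 h was -0.40 (SE 0.070, adjusted p = 0.00156).

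At 6 h STARD4 was the only one of the 7 genes called, where 0.202% of 11872 genes were called and 0.152% were called lower. Samples without DHA read 41.9, 39.6 and 42.4 CPM in Ctrl, 37.1, 38.2 and 34.8 CPM in PRO, and 39.3, 38.3 and 42.8 CPM in PCA. Samples with DHA read 23.6, 29.1 and 29.01 CPM alone, 24.4, 21.9 and 22.7 CPM with PRO, and 28.8, 23.7 and 26.1 CPM with PCA. No sample with DHA reached the lowest sample without it. STARD4 fell by 0.64 on the log2 scale (SE 0.070, 95% interval -0.79 to -0.49, adjusted p = 5.47e-05), so that its RNA fell by 35.7%.

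LIPA was lower with DHA at 24 h by a smaller margin. It was 177, 199.7 and 180.04 CPM in Ctrl, 208, 175 and 173 CPM in PRO, and 173, 192 and 168 CPM in PCA. It was 140.3, 174 and 141 CPM with DHA, 149, 152 and 142 CPM with DHA+PRO, and 137, 182 and 164 CPM with DHA+PCA. The upper DHA samples (174 and 182 CPM) overlapped the lower samples without DHA. LIPA fell by 0.25 on the log2 scale (SE 0.062, adjusted p = 0.0391). The call was lost, with adjusted p between 0.0534 and 0.110, in 11 of the 18 fits that left out 1 library (Ctrl replicates 2 and 3, DHA 1 and 3, PCA 1 and 2, DHA+PRO 1, 2 and 3, and DHA+PCA 1 and 3), with log2 changes there between -0.26 and -0.22. The same omissions kept MYLIP and STARD4 called at 24 h, with adjusted p of at most 0.0433 and 0.00670.

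NPC1 had a change of similar size to LIPA that was called only with a further covariate. At 24 h it ranged from 90.8 to 123 CPM (median 102) with DHA and from 101 to 142 CPM (median 122) without, so the groups overlapped. Its log2 change was -0.21 (SE 0.0757, 95% interval -0.37 to -0.055, adjusted p = 0.261). The library numbers in the sample titles fell into an earlier run, below 1900, and a later run above it. With the run of library numbers as a factor, the same change had an adjusted p of 0.0264. The adjusted p was 0.00274 with the replicate number as a block (SE 0.0409). Single omissions aside, it ran over the settings tried from 0.00274 to 0.261. In the 18 fits that left out 1 library it ran from 0.0830 to 0.446. Compared within replicate numbers, NPC1 was lower with DHA in 9 of 9 pairs at 24 h, with log2 differences between -0.34 and -0.050.

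NPC2, SCARB1 and SOAT1 had pooled changes near 0 at 24 h. NPC2 lay between 119 and 142 CPM with DHA and between 105 and 133 CPM without, a log2 change of 0.043 (95% interval -0.060 to 0.15). SCARB1 lay between 223 and 294 CPM with DHA and between 190 and 296 CPM without, a change of -0.0034 (interval -0.13 to 0.13). SOAT1 lay between 40.1 and 59.3 CPM with DHA and between 49.8 and 61.6 CPM without, a change of -0.0046 (interval -0.13 to 0.12). The direction of the last 2 values turned under some other settings. For these 3 genes the intervals leave room for changes of up to 0.15 on the log2 scale.

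At 6 h the genes other than STARD4 had pooled changes between -0.088 (LIPA, 95% interval -0.27 to 0.095) and 0.074 (SCARB1, interval -0.13 to 0.28). MYLIP at 6 h ranged from 7.02 to 12.6 CPM with DHA and from 6.95 to 13.1 CPM without, a log2 change of -0.031 (interval -0.35 to 0.28, adjusted p = 1.00). In each of the 6 groups at 6 h replicate 1 was the highest, by more than 1 CPM, and the spread within groups exceeded the difference between them. Whether an effect differed between 6 and 24 h was tested directly in all 36 samples. The change of the MYLIP effect was -0.56 (SE 0.197, adjusted p = 1.00) and that of the STARD4 effect 0.23 (SE 0.0974, adjusted p = 1.00). None of 12046 genes passed this test with edgeR (0%), and 368 had an unadjusted p below 0.05, MYLIP and STARD4 among them. DESeq2 called 6 genes, none of the 7. A difference between 6 and 24 h was thus not shown for any of the 7 genes.

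**Figure D1:**
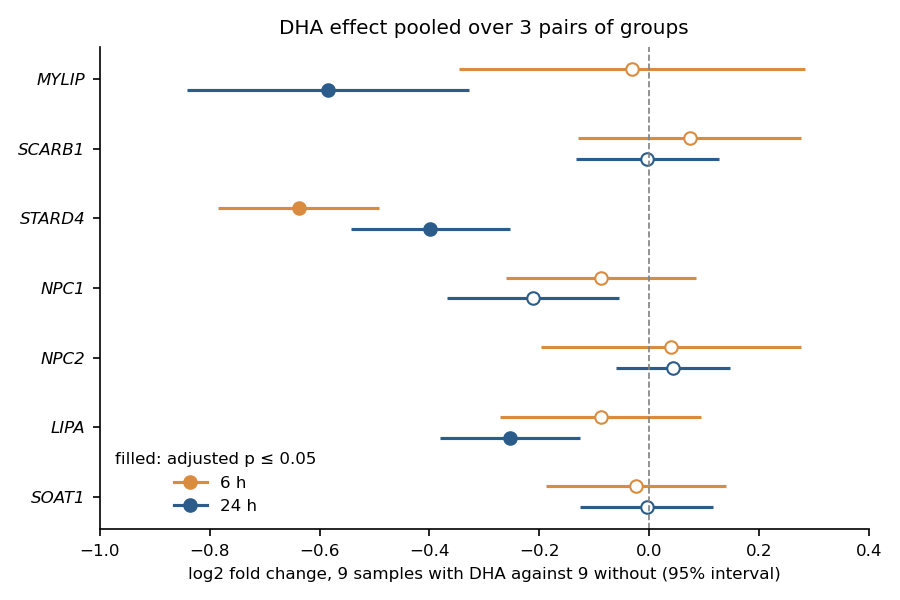
Log2 fold change (x axis) of each of the 7 genes (y axis) for the 9 samples with DHA against the 9 without, at 6 h (orange) and 24 h (blue). Points are estimates, bars 95% intervals, and filled points were called at an adjusted p of at most 0.05; STARD4 is filled at both times, at -0.64 and -0.40, MYLIP and LIPA at 24 h, at -0.59 and -0.25.

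The next comparisons set each treatment against Ctrl, which all 5 share. Here STARD4 was the only one of the 7 genes called. At 24 h its mean was 61.1 ± 7.18 CPM in Ctrl, 55.9 ± 5.30 in PRO, 51.4 ± 3.80 in PCA, 47.7 ± 3.69 in DHA, 41.3 ± 6.52 in DHA+PCA and 39.1 ± 3.62 CPM in DHA+PRO (SD, n = 3 each). Every pair of neighbours in this order overlapped sample by sample. Against Ctrl, STARD4 changed by -0.65 with DHA+PRO (SE 0.120, adjusted p = 0.00733) and by -0.57 with DHA+PCA (SE 0.123, adjusted p = 0.0398), where 0.395% and 0.286% of genes were called. With DHA alone the change was -0.35 (SE 0.120, 95% interval -0.60 to -0.11, adjusted p = 0.543).

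Both STARD4 calls against Ctrl at 24 h were lost when certain single libraries were left out. The DHA+PRO call was lost without Ctrl replicate 2 (adjusted p = 0.1097), DHA+PRO replicate 1 (0.0536) or DHA+PRO replicate 2 (0.104). The DHA+PCA call was lost without Ctrl replicate 2 (adjusted p = 0.379), Ctrl replicate 3 (0.0955), DHA+PCA replicate 1 (0.342) or DHA+PCA replicate 3 (0.269). The log2 change stayed between -0.73 and -0.55 for DHA+PRO and between -0.70 and -0.47 for DHA+PCA.

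At 6 h STARD4 had a mean of 41.3 ± 1.49 CPM in Ctrl, 40.1 ± 2.38 in PCA, 36.7 ± 1.73 in PRO, 27.2 ± 3.16 in DHA and 26.2 ± 2.54 CPM in DHA+PCA (SD, n = 3 each), with DHA+PRO lowest at 21.9 to 24.4 CPM. The samples of PRO (34.8 to 38.19 CPM) lay just below those of PCA (38.25 to 42.8 CPM), a difference that was not tested. They lay above those of DHA (23.6 to 29.1 CPM) by a wider gap. PRO against Ctrl at 6 h was not called (-0.17, SE 0.119). The change against Ctrl was -0.86 with DHA+PRO (SE 0.124, adjusted p = 0.00653), one of 2 genes called there (0.0168%). Replicates 2 and 3 of DHA+PRO at 6 h were in the later run of library numbers, against replicate 3 alone in every other group. This call stayed with that run as a factor. It was -0.61 with DHA (SE 0.121, adjusted p = 0.162) and -0.66 with DHA+PCA (SE 0.121, adjusted p = 0.0620), neither called by edgeR, while DESeq2 called both (adjusted p = 0.00378 and 5.97e-04). Single omissions aside, the adjusted p ran over the settings tried from 0.00378 to 0.899 for DHA and from 5.97e-04 to 0.157 for DHA+PCA. With 1 library left out it ran from 0.352 to 0.976 for DHA and from 0.0824 to 0.830 for DHA+PCA. The DHA+PRO call was lost without Ctrl replicate 1 (adjusted p = 0.0563), Ctrl replicate 3 (0.0541), DHA+PRO replicate 2 (0.107) or DHA+PRO replicate 3 (0.0640), and when the 6 samples were fitted alone (0.625). The log2 change ran from -0.85 to -0.82 in the 4 omissions that lost the call and was -0.84 in the fit of 6 samples.

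None of the 7 genes was called for DHA alone against Ctrl at 24 h, where 0.193% of genes were called. At an unadjusted p below 0.05, edgeR gave 3 of the 7 genes (STARD4, NPC1 and LIPA) and 708 of all 11893 genes tested. DESeq2 called 0 of the 7. MYLIP differed from Ctrl by -0.44 with DHA (SE 0.216), -0.40 with DHA+PRO (SE 0.206) and -0.75 with DHA+PCA (SE 0.227, adjusted p = 0.295). LIPA differed by -0.29, -0.33 and -0.20 and NPC1 by -0.30, -0.24 and -0.27 in the same order, none called. Leaving out 1 library moved the LIPA difference with DHA+PCA between -0.30 and -0.10, the latter without DHA+PCA replicate 1, and the NPC1 difference with DHA+PRO between -0.32 and -0.16.

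PRO and PCA alone gave no call among the 7 genes. Across all genes edgeR called 0 (0%) for each at either time. At 24 h 716 genes for PRO and 454 for PCA had an unadjusted p below 0.05, with SOAT1 the only one of the 7 (PRO, 0.21, adjusted p = 0.826). DESeq2 called 1 gene for PRO and 0 for PCA at 24 h, none of the 7. At 6 h 196 and 86 genes had such a p, none of them among the 7 genes, and DESeq2 called 0. MYLIP at 24 h was 10.0 ± 0.415 CPM in PRO, 8.46 ± 0.880 in Ctrl and 7.93 ± 2.79 CPM in PCA (SD, n = 3 each), a spread that in PCA came from replicate 1.

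**Figure D2:**
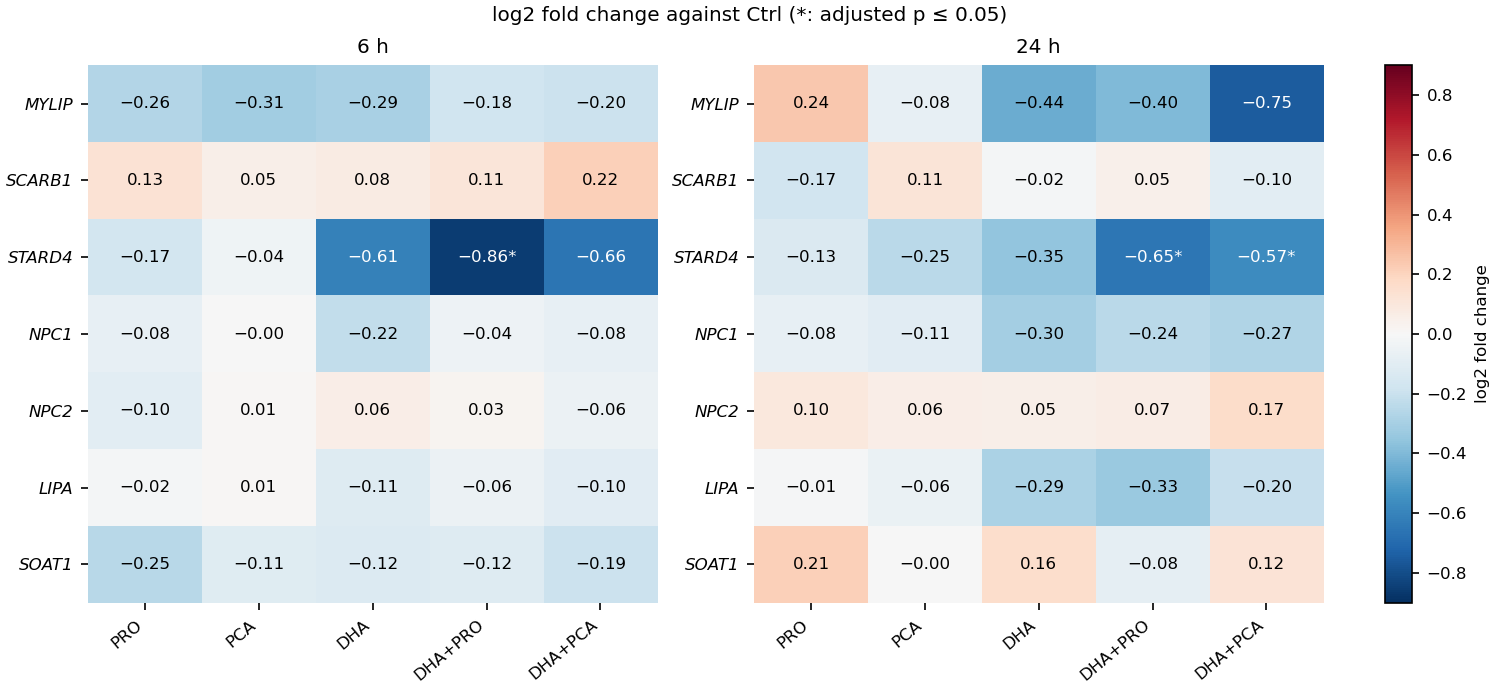
Log2 fold change of each of the 7 genes (rows) against Ctrl for each treatment (columns) at 6 h and 24 h, with blue lower and red higher, and an asterisk for an adjusted p of at most 0.05. The asterisks stand on STARD4 with DHA+PRO at 6 h (-0.86) and on STARD4 with DHA+PRO (-0.65) and DHA+PCA (-0.57) at 24 h.

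Whether PRO or PCA added to DHA was tested by setting each combination against DHA alone. None of the 7 genes was called at either time, and no gene at all was called by edgeR (0%). At 24 h DHA+PRO gave 527 genes at an unadjusted p below 0.05 and 11 genes by DESeq2, and DHA+PCA 276 and 0. At 6 h the counts were 168 and 151 with 0 by DESeq2. STARD4 was lower with DHA+PRO than with DHA at 24 h by -0.30 (95% interval -0.55 to -0.050, adjusted p = 0.999), and SOAT1 by -0.24 (interval -0.45 to -0.034, adjusted p = 0.999). The SOAT1 difference was -0.14 without DHA+PRO replicate 1. SOAT1 read 59.3, 55.8 and 55.7 CPM with DHA and 40.1, 50.5 and 53.4 CPM with DHA+PRO. For MYLIP the interval at 24 h ran from -0.39 to 0.49 with DHA+PRO and from -0.79 to 0.18 with DHA+PCA, so that changes of either sign remained possible.

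From 6 to 24 h in culture, 4 of the 7 genes changed in samples without DHA. Of all 12046 genes 48.4% were called, 24.3% higher and 24.1% lower at 24 h, so that the share was near that of all genes. Time in culture, time without serum and time with vehicle, PRO or PCA cannot be told apart here. LIPA rose by 0.54 (SE 0.0782, adjusted p = 6.65e-07), STARD4 by 0.51 (SE 0.0676, adjusted p = 1.54e-07) and NPC1 by 0.38 (SE 0.0828, adjusted p = 2.72e-04) on the log2 scale, while SOAT1 fell by 0.22 (SE 0.0687, adjusted p = 0.00778). LIPA in Ctrl read 126, 124 and 128 CPM at 6 h and 177, 199.7 and 180.04 CPM at 24 h, without overlap. SOAT1 in Ctrl read 70.2, 62.9 and 71.0 CPM at 6 h and 50.004, 52.3 and 50.8 CPM at 24 h. MYLIP (-0.039) and SCARB1 (-0.068) were not called. NPC2 (0.17, adjusted p = 0.112) was called without PRO 6 h replicate 1 (0.23, adjusted p = 0.0332), without PCA 6 h replicate 1 (0.24, adjusted p = 0.0299) and with the run of library numbers as a factor (0.23, adjusted p = 0.0188). At 6 h replicate 1 held the highest NPC2 sample in all 6 groups, at 125 to 153 CPM against 90.4 to 103 CPM in replicates 2 and 3.

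**Figure D3:**
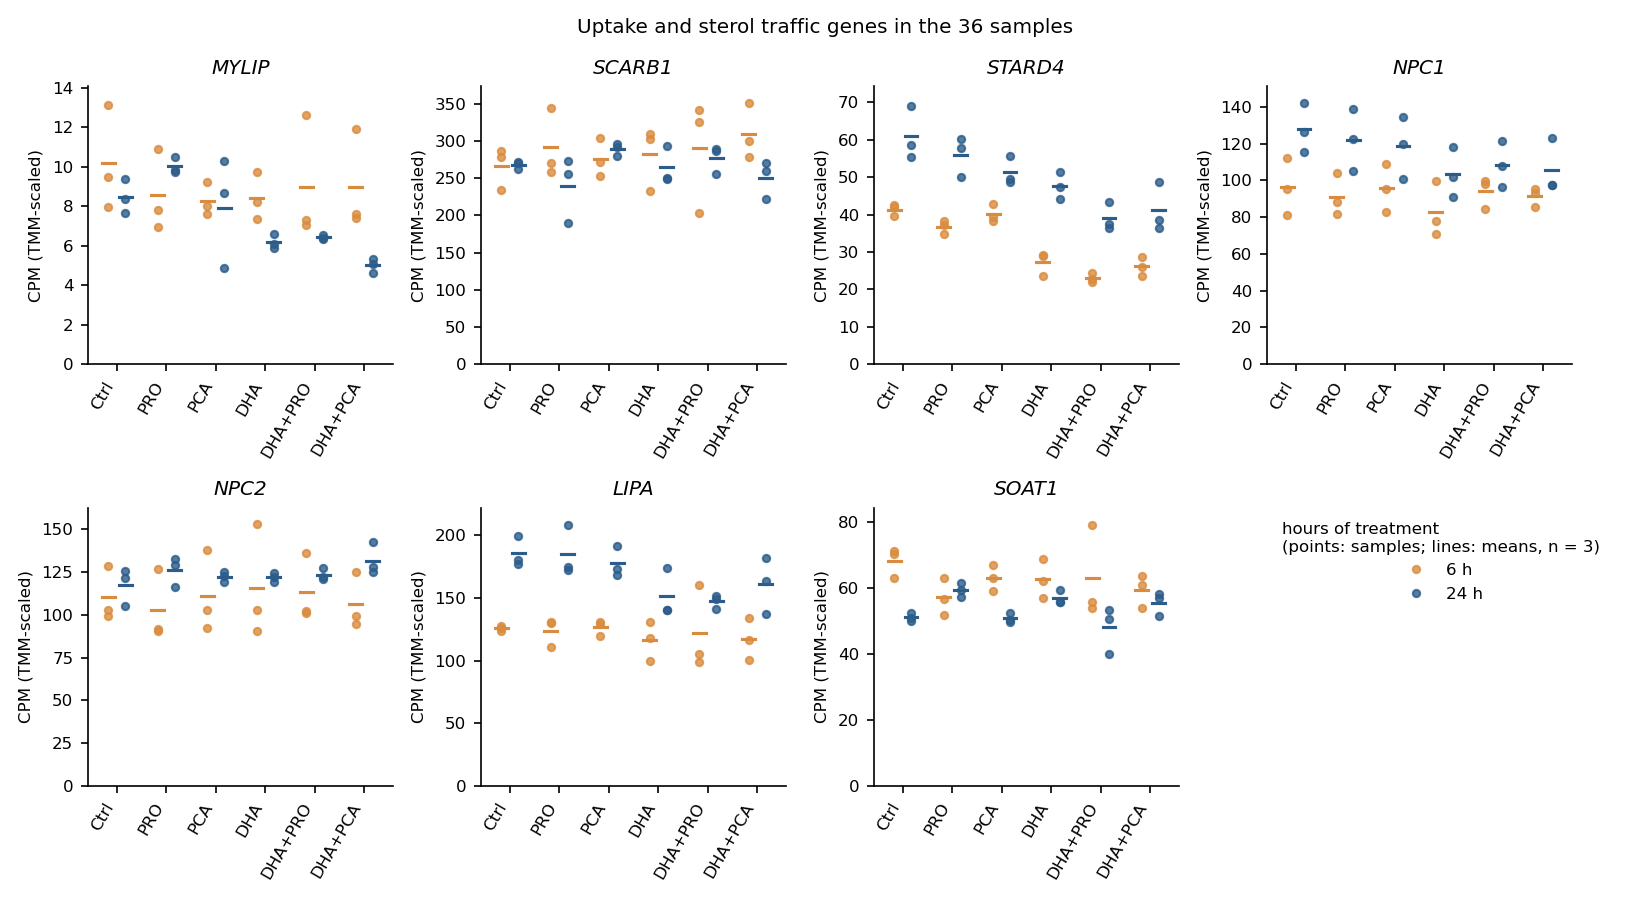
Level of each of the 7 genes in CPM scaled by TMM (y axis, from 0) in the 6 treatments (x axis) at 6 h (orange) and 24 h (blue). Points are samples and lines are means of 3; STARD4 with DHA at 6 h lies between 21.9 and 29.1 CPM, below all samples without DHA, and LIPA, STARD4 and NPC1 without DHA are higher at 24 h than at 6 h.

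Other genes of the same routes were examined for the pooled DHA effect at 24 h. Of 74 listed genes of uptake and sterol traffic, 63 were tested, 0 were called higher and 3 lower, with a median change of -0.011, where 0.942% of all genes were called lower. More genes of the list, in both directions, were called with a further covariate, as given with the processing alternatives. None of 28 uptake receptors and adaptors was called. Of 14 lysosomal genes, TMEM97, whose membrane protein binds NPC1, was lower (-0.35, SE 0.0441, adjusted p = 2.08e-05). Of 15 genes of cytosolic transfer, OSBP, which exchanges sterol at contact sites, was lower (-0.21, SE 0.0503, adjusted p = 0.0274). Of 6 genes of esterification and ester hydrolysis, ACAT2 was lower (-0.41, SE 0.0531, adjusted p = 2.72e-05). ACAT2 is the gene of cytosolic acetoacetyl-CoA thiolase, an early enzyme of sterol synthesis, and its symbol has also been used for the esterifying enzyme SOAT2, which differed by 0.013 (adjusted p = 0.968). At 6 h none of the 65 genes tested was called by edgeR (median 0.0078).

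Genes of cholesterol synthesis changed in larger numbers. Of 18 tested at 24 h, 16 were lower with DHA and 0 higher, against 0.942% of all genes called lower. Their median was -0.47, and among them were HMGCS1 (-0.72), FDFT1 (-0.59), FDPS (-0.49) and MSMO1 (-0.48), enzymes from the start of the pathway to its sterol steps. At 6 h 9 of the 18 were lower, against 0.152% of all genes, with a median of -0.40. Of 8 tested LXR targets, with MYLIP not counted among them, SREBF1 (-0.68, adjusted p = 7.15e-05), the gene of the SREBP1 factor, and SMPDL3A (-0.44, adjusted p = 0.00979), a secreted phosphodiesterase, were lower at 24 h, again against 0.942% of all genes. ABCA1, the cholesterol exporter and a classical LXR target, differed by 0.023 (adjusted p = 0.946), and the median of the 8 was -0.11. At 6 h SREBF1 alone was lower (-0.63). From 6 to 24 h without DHA, 18 of 18 synthesis genes and 7 of 8 LXR targets rose, against 24.3% of all genes.

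**Figure D4:**
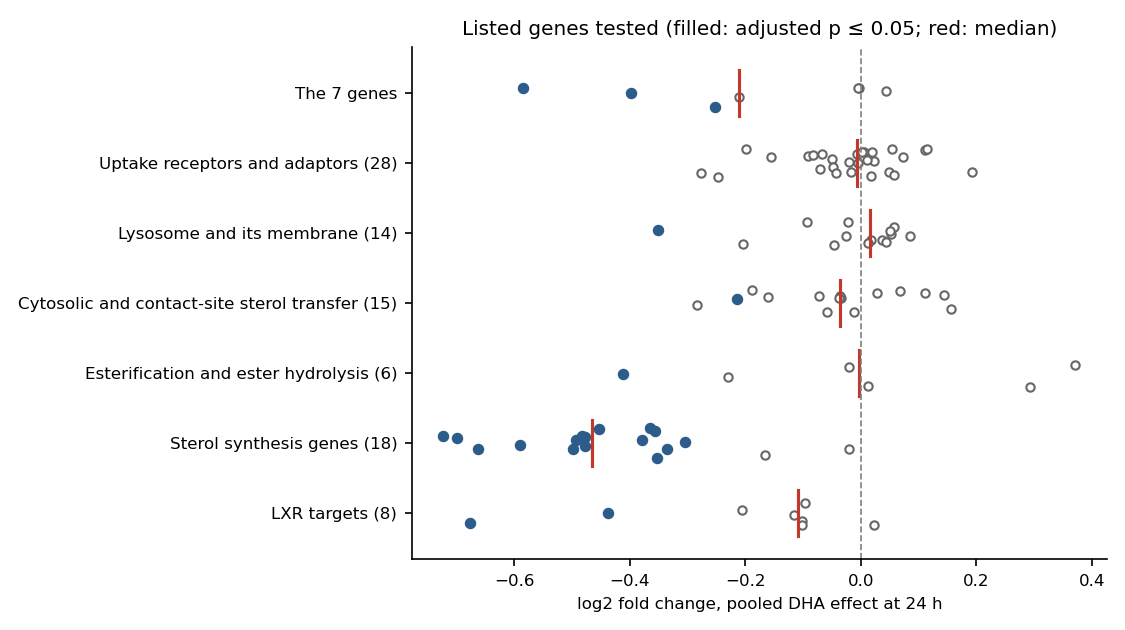
Log2 fold change for the pooled DHA effect at 24 h (x axis) of the 7 genes and of the listed genes tested (y axis, with the number of genes). Each point is a gene, filled where the adjusted p was at most 0.05, and red lines are medians; the sterol synthesis genes have their median at -0.47 and the uptake receptors and adaptors at -0.0057.

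The genes whose levels most resembled each of the 7 were ranked by Pearson's r over the 36 libraries among 12046 genes, on log2 CPM centred within each time and replicate number. These values describe libraries that share treatments within groups and differ in depth. STARD4 was most like MSMO1 (r = 0.93) and SQLE (0.92), 2 enzymes of cholesterol synthesis, and the same 2 genes led without centring (0.95 each). SCARB1 was most like LSR (0.91), a lipoprotein receptor, and BCAR1 (0.91). LIPA was most like SSR1 (0.84) and SSR3 (0.83), subunits of the translocon-associated protein complex. MYLIP came nearest to LYZ (0.81) and FILIP1L (0.78), NPC1 to GOLGB1 (0.86) and CREB3L2 (0.82), NPC2 to RPL37A (0.77) and C14orf119 (0.77), and SOAT1 to FAM188A (0.83) and ATF2 (0.82). For every gene but STARD4 both leading genes were others without centring. The r of several pairs then fell to near 0 or below it, to -0.11 for MYLIP with LYZ, 0.11 for MYLIP with FILIP1L, -0.32 for NPC1 with GOLGB1 and 0.019 for LIPA with SSR1, so these likenesses held only after centring.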

How the data were processed

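RNA of 36 HepG2 samples was sequenced by the authors after TruSeq v2 preparation, which keeps no strand, aligned to hg19/GRCh37 with STAR and counted by iRNA-seq. The deposited table holds raw counts, whole reads per gene, for 18932 genes. Groups were taken from the sample titles. Counts were filtered by group (filterByExpr), scaled by TMM and fitted with edgeR 4.0.16 (limma 3.58.1, R 4.3.3), separately for the 18 samples of 6 h and of 24 h and jointly for both times, in place of the study's one-way test. CPM and RPKM were computed from TMM-scaled counts and the counted length in the table. p-values (edgeR, quasi-likelihood) were corrected after Benjamini and Hochberg for every gene in the fit, and a call needed 0.05 or less and an average log2 CPM above 0. The test was checked only on data simulated after the 24 h libraries, with the same spread for every gene and no replicate effect. DESeq2 1.42.0, other scalings, no filter, added covariates, thinning and omission of libraries were tried. The 7 genes, the gene lists and the tests were chosen with earlier results of these data known. Beside the 7 genes, the text named up to 4 called genes a direction from the uptake and traffic list, by size. From the synthesis and LXR lists it named up to 4 called genes each, by p. The 2 genes most like each of the 7 were also named. SOAT2, ABCA1 and SQLE were added after their values were seen. Upstream sequence came from GRCh37. The 630 pairs of libraries all differed beyond sampling noise. Depth was 4659744 to 42326734 counts. Some genes are not reported here.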

Additional observations from a re-analysis of the deposited data

How the results depend on the processing

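MYLIP and STARD4 stayed called lower in the pooled DHA comparison at 24 h, and STARD4 at 6 h, under every scaling, filter, covariate, tool and single omission tried. Members called ranged over the omissions from 2 to 3 for the pooled effect at 24 h, from 0 to 1 for DHA+PRO against Ctrl at 24 h and at 6 h and for DHA+PCA against Ctrl at 24 h, from 4 to 5 for culture time, and stayed at 1 for the pooled effect at 6 h. STARD4 made 1 call for DHA against Ctrl at 6 h under DESeq2 and 1 for DHA+PCA at 6 h under DESeq2 and with the run of library numbers as a factor. With the compared groups alone, DHA+PRO against Ctrl at 6 h gave 0 calls. Over all genes DESeq2 called 222 (24 h) and 45 (6 h) for the pooled effect in place of 146 and 24, and the run of library numbers gave 46 at 6 h. For DHA, DHA+PRO and DHA+PCA against Ctrl at 24 h, 23, 47 and 34 genes became 48, 74 and 63 by DESeq2 and 49, 79 and 74 with no filter; the latter 2 became 79 and 61 with the compared groups alone, and DHA+PCA 53 with the run of library numbers. At 6 h 2 genes each became 10, 11 and 7 by DESeq2 and 8, 10 and 8 with the run of library numbers, and DHA and DHA+PRO became 5 and 7 with no filter and 0 with the compared groups alone. PRO at 24 h gave 10 genes with no filter, and the change with time gave 2 so and 3 with the run of library numbers. The median level per kilobase changed, for example for MYLIP from 2.52 to 0.404, when the genomic span replaced the counted length. Counts of 26 to 267 reads limit MYLIP.

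Samples with the same replicate number correlated in their deviations from the group means by 0.153 on average at 24 h (-0.18 to 0.34, above 0.1 in 34 of 45 pairs) and 0.256 at 6 h (-0.12 to 0.46, 36 of 45). At each time 15 of 18 samples correlated best with a sample of their own number. The library names repeat the same replicate sets in every group, but do not say that a set marks the same culture. A fit with the replicate number as a block was therefore kept as an alternative. With the replicate number as a block, the genes called rose from 146 to 367 (24 h) and from 24 to 64 (6 h) for the pooled effect, to 77, 135 and 130 (24 h) and 18, 13 and 11 (6 h) for DHA, DHA+PRO and DHA+PCA against Ctrl, to 1 for DHA+PRO against DHA at 24 h and to 20 for the change with time. NPC1 was then called for the pooled effect at 24 h (adjusted p = 0.00274) and as 1 gene for DHA against Ctrl at 24 h (adjusted p = 0.0446), STARD4 as 1 gene for DHA and 1 for DHA+PCA against Ctrl at 6 h (adjusted p = 0.0209 and 0.0116), and NPC2 for culture time (adjusted p = 4.11e-04). The block changed no other call of the 7 genes. Of the 63 other uptake and traffic genes tested at 24 h, it gave 2 higher and 6 lower (3 of these among the 28 receptors and adaptors) in place of 0 and 3, of 65 at 6 h 2 lower in place of 0, of the 18 synthesis genes 17 and 13 lower in place of 16 and 9, and of the 8 LXR targets 3 lower at 24 h in place of 2.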
